A study of Mus musculus with 4 samples.

Results

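The 7 genes described here encode chemokines that attract monocytes, T cells and other lymphocytes: Ccl2, Ccl5, Ccl7, Ccl20, Cx3cl1, Cxcl10 and Cxcl16. They were chosen by name from the chemokine family, leaving out the ligands of the neutrophil receptor CXCR2, and all 7 had a row among the 21840 genes of the deposited table. RNA was sequenced from 4T1, an established mouse mammary carcinoma cell line of wild-type genotype labelled as epithelial, in 2 libraries from cells given phosphate-buffered saline (PBS) and 2 from cells given recombinant interleukin-17A (rIL17). Both groups were grown in the same serum-containing RPMI medium. The labels give neither the dose nor the duration of the treatment. The labels do not call the replicates separate cultures, so p-values reflect only the spread among these libraries, and that spread may be technical.

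Chemokines are small secreted or membrane-held proteins that guide leukocytes through G protein-coupled receptors. CCL2 and CCL7 act on CCR2 of inflammatory monocytes, CCL5 on CCR1 of monocytes, CCL20 on CCR6 of Th17 cells, B cells and dendritic cells, and CXCL10 on CXCR3 of activated T and NK cells. CX3CL1 (fractalkine) and CXCL16 are made as transmembrane proteins, bind CX3CR1 and CXCR6, and are released by the proteases ADAM10 and ADAM17. IL-17A is known to raise chemokine RNA in epithelial cells through the adaptor Act1, NF-kB and C/EBP factors and by stabilizing mRNA, whereas CXCL10 is a classical product of interferon signalling.

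If 1 step of the deposited values is 1 read, the libraries held 17511450 to 17970104 reads assigned to genes. PBS replicate 2 stood apart: on the first principal component of 12515 genes it lay at -36.5, while PBS replicate 1 lay at -5.2 and rIL17 replicates 1 and 2 at 24 and 17.7. The 2 PBS libraries differed along transcript GC content, with a median log2 difference (replicate 2 minus replicate 1) of -0.47 for genes below 40% GC. Epithelial markers were present, with Krt8 at 31207 and Krt18 at 19753 normalized counts on average in PBS. Cdh1 had 194 and Epcam 106. The summed level of the 9 epithelial markers, most of it Krt8 and Krt18, was 54351 and 58594 in PBS, against 46360 and 48462 in rIL17. This sum moved with the groups, and its part in the differences below was not tested. Of the 9 markers 6 were lower in rIL17 without overlap, whereas Epcam, Krt19 and Cldn3 had overlapping groups. The share lower was 20.0% of all genes tested and 24.7% of those averaging at least 10 normalized counts, as all 9 did. Leukocyte RNA was near 0: Ptprc, the pan-leukocyte gene, was listed at 0 in each PBS library and had 3.02 and 2.01 in rIL17, and of 9 lymphocyte markers only Cd79a had a row, at no more than 2.01. The 7 macrophage and monocyte markers with a row, of 10, summed to 940 and 977 in PBS, against 1054 and 980 in rIL17, nearly all from Cd14 and Cd68. Of 10 fibroblast and endothelial markers 7 had a row and summed to 2449 and 2560 in PBS, against 2978 and 2973 in rIL17. Pdgfra made up most of this sum, with a mean of 2395 in PBS and 2859 in rIL17. The markers did not share a direction. Of the 6 tested, 2 (Pdgfra and Dcn) were higher and 2 (Pdgfrb and Col1a1) lower in rIL17 without overlap. The shares of all genes tested were 25.4% and 20.0%. In bulk RNA, fewer cells of a type and less RNA per cell cannot be told apart.

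Under rIL17, Ccl7 had more RNA, Cx3cl1 and Cxcl10 had less, and Ccl2, Ccl5, Ccl20 and Cxcl16 had values that overlapped with those of the PBS libraries. None of the 7 differences passed limma's test at an adjusted p below 0.05. Neither did any gene of the table (0% of 20677 genes tested), although 2642 genes had an unadjusted p below 0.05 and limma-voom called 1. The unadjusted p was below 0.05 for Ccl7, Cx3cl1 and Cxcl10, that is 3 of the 7 genes, against 12.8% of all genes tested. In 1 of the 7 genes both rIL17 libraries lay above both PBS libraries, as in 25.4% of all genes, and in 2 of the 7 both lay below, as in 20.0% of all genes. All 7 averaged at least 10 normalized counts. Among the 13479 genes at that level the shares were 25.4% and 24.7%. With upper-quartile scaling the shares of all genes were 18.3% and 28.7%, and the counts of 1 and 2 among the 7 genes were unchanged. The median log2 fold change of the 7 genes was -0.02, beside 0.01 over all genes tested.

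**Figure D1:**
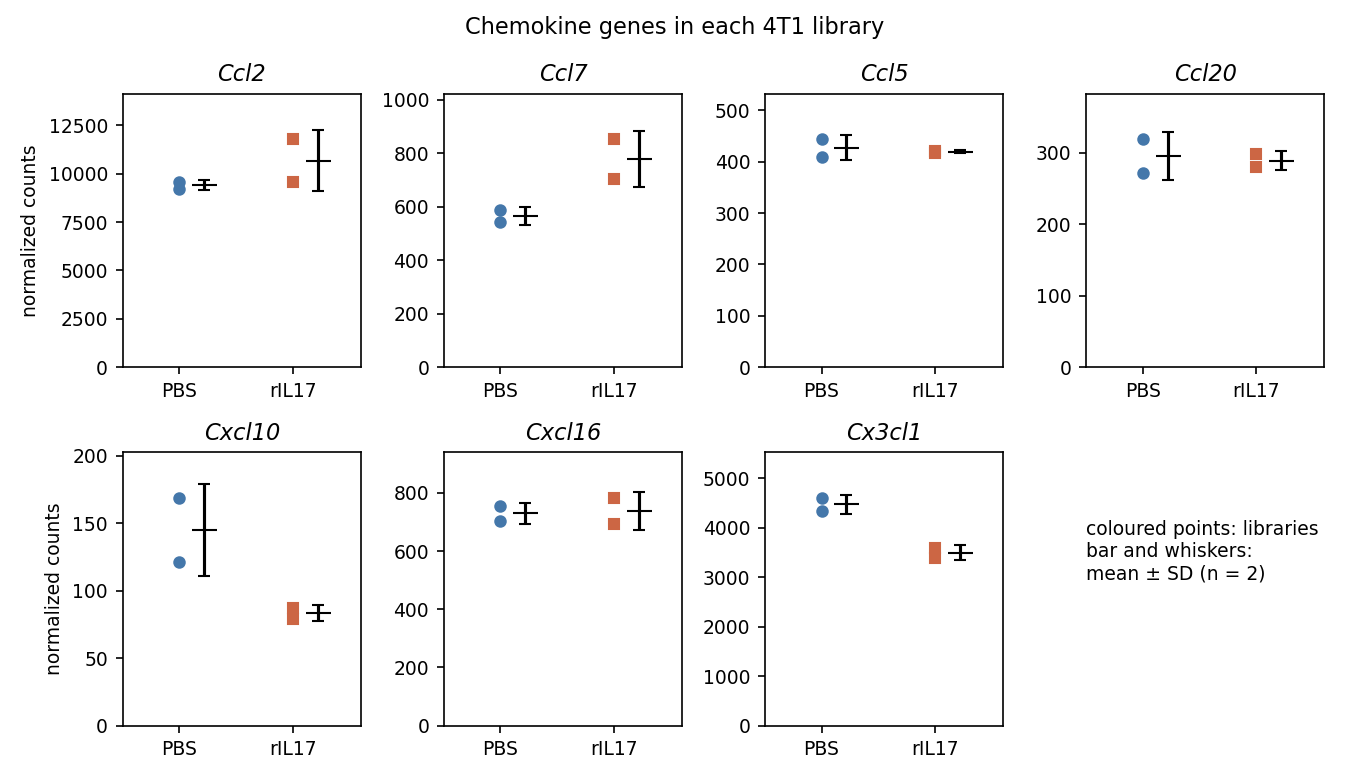
Normalized counts (y axes, from 0, one scale per gene) of the 7 chemokine genes in the PBS and rIL17 libraries, with coloured points for single libraries and a bar with whiskers for the mean ± SD of 2. Both rIL17 points lie above both PBS points for Ccl7 and below them for Cx3cl1 and Cxcl10.

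The genes differed widely in level. Per kilobase of exon in PBS, Ccl2 was the most abundant, with 8263 ± 223 normalized counts per kb (SD, n = 2), above 99.6% of all genes tested. Cx3cl1 followed with 1139 ± 48.1, then Ccl7 with 705 ± 40.4, Ccl5 with 445 ± 24.6, Cxcl16 with 241 ± 11.3 and Ccl20 with 208 ± 23.6. Cxcl10 was the least abundant at 64.3 ± 15.2 per kb, still above 58.6% of genes. Over the 4 libraries, neighbours in this order did not overlap in per-kb level except Cx3cl1 and Ccl7. In rIL17 Ccl7 had 880 and 1066 per kb and Cx3cl1 864 and 916, so their ranges overlapped, whereas in PBS Cx3cl1 had 1105 and 1173 and Ccl7 677 and 734. Ccl2 alone made up 74.6% and 74.8% of the summed per-kb level of the 7 genes in PBS and 78.0% and 76.1% in rIL17.

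The RefSeq promoter table (GRCm38.p6, 250 bases before to 50 after the annotated start) held 3 of the 7 genes. They are Ccl20 (chr1:83116516-83116815, plus strand), whose groups overlapped, and the 2 genes lower in rIL17 without overlap, Cx3cl1 (chr8:94771930-94772229, plus strand) and Cxcl10 (chr5:92348840-92349139, minus strand). Each is written 5′ to 3′ on the gene's strand. In capitals are matches, on either strand, to the NF-kB consensus GGGRNYYYCC or to the interferon-stimulated response element core GAAANNGAA. Here R is A or G, Y is C or T, and N is any base. Stretches that depart from these letters, such as gggaaattcc in Cxcl10, stay in lower case.
Ccl20: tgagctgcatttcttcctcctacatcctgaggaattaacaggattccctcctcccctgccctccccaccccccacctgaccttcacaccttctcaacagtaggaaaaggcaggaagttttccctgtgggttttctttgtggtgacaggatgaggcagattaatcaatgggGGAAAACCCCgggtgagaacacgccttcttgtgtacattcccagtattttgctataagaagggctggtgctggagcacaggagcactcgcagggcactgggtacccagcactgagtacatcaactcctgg
Cx3cl1: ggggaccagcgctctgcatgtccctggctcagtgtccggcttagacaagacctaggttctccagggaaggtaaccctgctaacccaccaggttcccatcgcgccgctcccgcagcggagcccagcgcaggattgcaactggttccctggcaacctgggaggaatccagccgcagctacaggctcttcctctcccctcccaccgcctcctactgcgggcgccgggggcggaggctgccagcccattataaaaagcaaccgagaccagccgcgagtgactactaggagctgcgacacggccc
Cxcl10: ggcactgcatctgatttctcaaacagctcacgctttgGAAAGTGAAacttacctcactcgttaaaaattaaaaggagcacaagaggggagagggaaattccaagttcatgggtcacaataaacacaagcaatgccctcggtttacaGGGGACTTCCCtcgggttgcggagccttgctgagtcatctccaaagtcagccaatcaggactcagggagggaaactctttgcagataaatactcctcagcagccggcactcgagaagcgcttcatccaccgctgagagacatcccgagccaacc
The Cxcl10 window held 2 overlapping NF-kB matches, beginning 104 and 103 bases before the start, and 1 response element core beginning 213 bases before it. It also held the AP-1 motif TGANTCA, 74 bases before the start. Ccl20 held 1 NF-kB match on the opposite strand, 80 to 71 bases before the start. Cx3cl1 held neither capitalized motif, and a TATAAA match ended at the base before its RefSeq start. That start lies 171 bases downstream of the GENCODE start of Cx3cl1, whereas the starts of Ccl20 and Cxcl10 are the same in both annotations. None of the 3 windows held the C/EBP motif TTGCNNAA or the STAT motif TTCNNNGAA. Of all 32851 promoters in the table, 5.8% held an NF-kB match, 8.56% the response element core, 7.81% the AP-1 motif, 10.8% the C/EBP motif, 8.3% the STAT motif and 13.6% TATAAA. These are matches of letters only.

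The monocyte chemokine genes Ccl2 and Ccl7 lie next to each other on chromosome 11 of mm10, 8.3 kb apart on the plus strand with no coding gene between them in GENCODE M21 (Ccl2, ENSMUSG00000035385, 82035571 to 82037453; Ccl7, ENSMUSG00000035373, 82045712 to 82047525). Ccl7, the weaker expressed of the pair, had 588 and 542 normalized counts in PBS, against 853 and 705 in rIL17. Both rIL17 libraries were higher than both PBS libraries, a 1.38-fold ratio of the means of 779 ± 105 and 565 ± 32.4 (SD, n = 2). The log2 fold change, on the log2(normalized count + 1) scale, was 0.46 (SE 0.12, 95% interval 0.11 to 0.81, limma adjusted p = 0.373). With each library's values corrected for GC content it was 0.26 (adjusted p = 0.361). The Ccl7 transcript has 42.9% GC, and the median gene between 40% and 45% GC differed by 0.19 between the groups. Without PBS replicate 2, the library that stood apart, the value for Ccl7 was 0.40.

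Ccl2 had 9225 and 9583 normalized counts in PBS, against 11789 and 9564 in rIL17. Only rIL17 replicate 1 lay above the PBS libraries, while rIL17 replicate 2 fell between them. On the log2 scale the difference was 0.18 (SE 0.12, 95% interval -0.17 to 0.52, limma adjusted p = 0.578). Without rIL17 replicate 1 it was 0.02, without rIL17 replicate 2 it was 0.33, and with the GC correction 0.05. The interval does not reach a doubling of Ccl2 RNA in either direction.

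Cx3cl1, encoding fractalkine, had the smallest standard error relative to its difference among the 7 genes. It had 4342 and 4609 normalized counts in PBS, against 3600 and 3394 in rIL17, and the groups did not overlap (ENSMUSG00000031778, chromosome 8, 94772009 to 94782427, plus strand). The mean was 1.28-fold lower in rIL17, 3497 ± 146 against 4475 ± 189 (SD, n = 2). The log2 fold change was -0.36 (SE 0.06, 95% interval -0.52 to -0.19, limma adjusted p = 0.37). It was -0.29 with the GC correction (adjusted p = 0.117) and -0.31 without PBS replicate 2 (adjusted p = 0.398). Of the 7 genes, Cx3cl1 was the only one to pass in any alternative fit: with robust shrinkage of the variances in limma its adjusted p was 0.0341, in a fit that called 1.30% of all genes. With the stricter filter on low values, where limma called 0.807% of 12515 genes, 0 of the 7 genes passed, and the adjusted p of Cx3cl1 was 0.0834.

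Cxcl16, encoding the other membrane-held chemokine, had 754 and 705 normalized counts in PBS, against 784 and 693 in rIL17 (ENSMUSG00000018920, chromosome 11, 70453983 to 70459984, minus strand). The rIL17 libraries lay above and below the PBS libraries. The log2 fold change was 0.02 (SE 0.09, 95% interval -0.24 to 0.27, limma adjusted p = 0.943), and its sign turned with the scaling. Cxcl16 shares 552 exonic bases with Zmynd15 on the opposite strand, which had 98.1 to 129 normalized counts. Because the strand setting of the counting is not given, reads of the 2 genes may not be told apart.

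Cxcl10 had the largest log2 difference of the 7 genes and the fewest reads. It had 121 and 169 normalized counts in PBS, against 87.5 and 79.2 in rIL17, so the groups did not overlap and rIL17 was lower (ENSMUSG00000034855, chromosome 5, 92346638 to 92348889, minus strand). The 95% Poisson intervals, which rest on reads inferred from the values and cover counting error only, were 100 to 144 and 145 to 196 in PBS and 70.1 to 108 and 62.7 to 98.7 in rIL17. The mean was 1.74-fold lower in rIL17, 83.3 ± 5.82 against 145 ± 34.2 (SD, n = 2). Its log2 fold change was -0.77 (SE 0.21, 95% interval -1.39 to -0.15, limma adjusted p = 0.373). The PBS libraries themselves differed by 0.48 on that scale, and the log2 fold change was -0.53 without PBS replicate 2 and -0.79 after correction for GC content. Art3, on the opposite strand, shares 133 exonic bases with Cxcl10 and had at most 2.98 normalized counts.

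Cxcl11, whose product also binds CXCR3, lies 10.7 kb from Cxcl10 and was barely present, with 18.6 and 4.97 normalized counts in PBS, against 3.02 and 3.01 in rIL17. The groups did not overlap, but only PBS replicate 1 stood clear of the other 3 libraries.

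Ccl5, encoding RANTES, had 410 and 444 normalized counts in PBS, against 421 and 417 in rIL17 (ENSMUSG00000035042, chromosome 11, 83525778 to 83530518, minus strand). Both rIL17 values fell between the PBS values. Their log2 fold change was -0.02 (SE 0.07, 95% interval -0.23 to 0.18, limma adjusted p = 0.891).

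Ccl20, the CCR6 ligand, had 272 and 319 normalized counts in PBS, against 298 and 280 in rIL17, again with both rIL17 values between the PBS values (ENSMUSG00000026166, chromosome 1, 83116766 to 83119167, plus strand). The log2 fold change was -0.03 (SE 0.11, 95% interval -0.36 to 0.30, limma adjusted p = 0.918). Of the 7 genes, Ccl20 shifted most with the GC correction. Its longest transcript has 39.0% GC, and genes below 40% GC differed by a median of 0.54 between the groups. After correction for GC content Ccl20 had a value of -0.64 on the log2 scale (adjusted p = 0.366) and both rIL17 values lay below both PBS values. Between the PBS libraries Ccl20 was 0.23 higher in replicate 2, where the median gene of its GC class differed by -0.47.

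**Figure D2:**
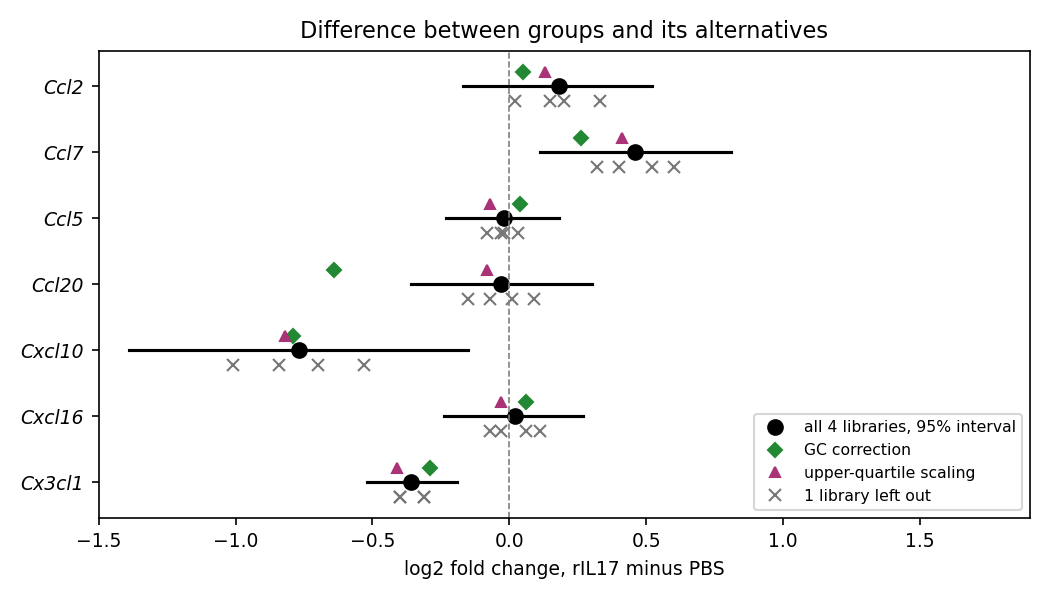
Log2 fold change (rIL17 minus PBS, x axis) of each chemokine gene, with black points and lines for the estimate from all 4 libraries and its 95% interval, diamonds for the GC-corrected value, triangles for the value with upper-quartile scaling, and crosses for the values with 1 library left out. The crosses stay on one side of 0 for Ccl7, Ccl2, Cx3cl1 and Cxcl10, and the diamond of Ccl20 at -0.64 lies outside its interval.

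**Figure D3:**
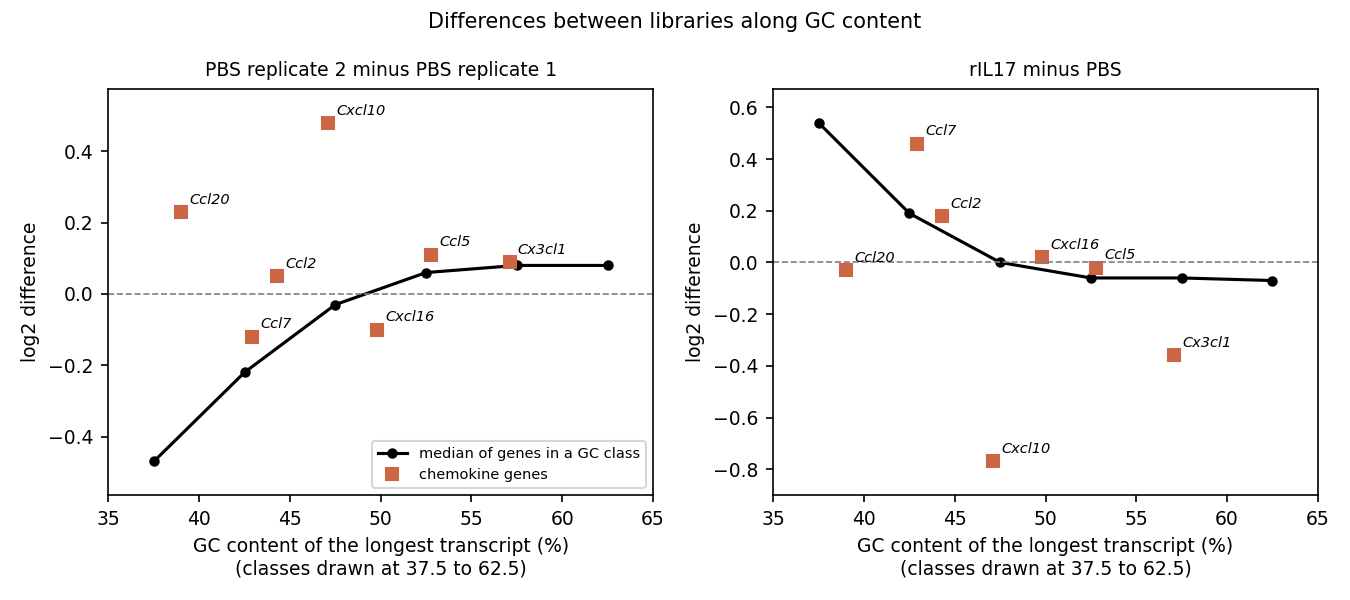
Log2 differences (y axes) against the GC content of the longest transcript (x axes) between the 2 PBS libraries (left) and between the groups (right), with black points for medians of genes in 6 GC classes and squares for the 7 chemokine genes. In the right panel Ccl7 at 0.46 lies above the median of its class (0.19), and Ccl20 at -0.03 lies below that of its class (0.54).

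Other chemokine genes for mononuclear cells were scarce in these cells. Of 21 further genes of that kind 5 had a row, and only Ccl25 and Ccl9 averaged at least 10 normalized counts. Ccl25 had 107 and 120 in PBS, against 132 and 96.3 in rIL17, and Ccl9 18.6 and 32.8 in PBS, against 34.2 and 23.1 in rIL17, with overlapping groups in both. Ccl17, 28.0 kb from Cx3cl1, had 8.83 and 10.9 in PBS, against 9.05 and 3.01 in rIL17, and Ccl3 did not exceed 4.02 in any library. With the GC correction Ccl25 had a log2 fold change of -0.58 in place of -0.01 (limma adjusted p = 0.43), and the median of the 5 moved from -0.01 to -0.58. None of the 5 passed over all genes or with robust shrinkage, nor did either of the 2 that the stricter filter kept.

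The CXCR2 ligands, which recruit neutrophils, are set beside them from the same libraries. Of 6 ligand genes, 5 were higher in rIL17 without overlap of the groups, against 1 of the 7 genes described here, and 25.4% of all genes. Among these 5, Ppbp was low and barely separated, with 11.8 and 5.97 normalized counts in PBS, against 12.1 and 15 in rIL17. The list's median log2 fold change was 0.71. It was 0.66 with upper-quartile scaling and 0.54 with the GC correction, each with 4 genes higher, where the shares of all genes were 18.3% and 22.4%. Cxcl5 had 12325 and 10771 normalized counts in PBS, against 29004 and 20972 in rIL17, and Cxcl1 7389 and 6785 in PBS, against 13225 and 11467 in rIL17. With the stricter filter, which called 0.807% of 12515 genes, both passed (limma adjusted p = 0.0434 for Cxcl5 and 0.0241 for Cxcl1). With robust shrinkage, which called 1.30% of all genes, Cxcl1 and Cxcl3 did. With the GC correction, which called 119 of 20677 genes, Cxcl1 passed (0.69, limma adjusted p = 0.0149). Cxcl5 did not (0.76 in place of 1.10, adjusted p = 0.0796). The difference between the lists was not tested.

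Of 11 receptor genes 5 had a row, and these were near 0 apart from Cxcr3, the receptor of CXCL10, which had 52 and 49.7 normalized counts in PBS, against 32.2 and 44.1 in rIL17. Cx3cr1, the receptor of CX3CL1, had 3.92 and 3.98 in PBS, against 1.01 and 0 in rIL17, values near the level of 3 reads. Ccr1, Cxcr6 and Ackr4 had at most 3.02 in any library.

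Among 9 genes of chemokine-cleaving proteases and their regulators with a row, 2 were higher and 2 lower without overlap, near the shares of all genes (25.4% and 20.0%). With the GC correction the counts were 4 and 2, beside 22.4% and 22.7% of all genes. With upper-quartile scaling they were 2 and 2, beside 18.3% and 28.7%. Adam10, a sheddase of CX3CL1 and CXCL16, had 2191 and 1437 normalized counts in PBS, against 2623 and 2461 in rIL17 (log2 fold change 0.52, SE 0.23, and 0.26 with the GC correction). Adam17, another sheddase, had 2616 and 2373 in PBS, against 2807 and 2478 in rIL17, with overlapping groups. Rhbdf2, encoding a carrier of ADAM17 to the cell surface, had 2012 and 1973 in PBS, against 1714 and 1740 in rIL17 (log2 fold change -0.21, SE 0.04, and -0.14 with the GC correction). For Mmp14, a membrane-bound metalloproteinase gene, the difference was -0.13 on the log2 scale (SE 0.04), and -0.07 with the GC correction. Mmp9, encoding gelatinase B, was the only one to pass, with the stricter filter and with robust shrinkage (limma adjusted p = 0.0118 and 0.000288). These fits called 0.807% and 1.30% of the genes they tested.

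Of 19 genes for interferon and NF-kB factors that act on chemokine promoters, 7 were higher and 6 lower in rIL17 without overlap, beside 25.4% and 20.0% of all genes. Among genes averaging at least 10 normalized counts, as all 19 did, these shares were 25.4% and 24.7%. With upper-quartile scaling the counts were 7 and 9, beside 18.3% and 28.7% of all genes. With the GC correction they were 7 and 7, beside 22.4% and 22.7%. With robust shrinkage in limma 3 passed as higher and 2 as lower, in a fit that called 1.30% of all genes. Cebpd rose (log2 fold change 1.31, adjusted p = 6.96e-05), as did Nfkbiz (0.58, adjusted p = 0.00607) and Stat3 (0.43, adjusted p = 0.0162). Irf7 (-0.90, adjusted p = 0.0215) and Irf1 (-0.44, adjusted p = 0.0155), which encode factors that bind interferon response elements, passed as lower. Irf7 had 249 and 230 normalized counts in PBS, against 119 and 137 in rIL17, and it is named outside the rule, having been chosen after its values were seen. With the stricter filter, which called 0.807% of 12515 genes, only Cebpd and Nfkbiz passed. In the main fit over all genes tested 0 did. With the GC correction, which called 119 of 20677 genes, Cebpd and Nfkbiz passed. Stat3 (0.50, limma adjusted p = 0.0477) and Irf1 (-0.38, adjusted p = 0.0456) passed as well, whereas Irf7 did not (-0.83, adjusted p = 0.0813).

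Of 10 regulators of chemokine mRNA stability, 6 were higher and 1 lower in rIL17 without overlap, beside 25.4% and 20.0% of all genes. The counts became 4 and 3 with upper-quartile scaling (18.3% and 28.7% of all genes) and 4 and 1 with the GC correction (22.4% and 22.7%). Zc3h12a, encoding the RNase Regnase-1, had 1482 and 1489 normalized counts in PBS, against 2021 and 1919 in rIL17. It passed with robust shrinkage (log2 fold change 0.41, limma adjusted p = 0.0257), in a fit that called 1.30% of all genes. Zfp36, encoding tristetraprolin, had 284 and 290 in PBS, against 244 and 248 in rIL17. The log2 fold change of Elavl1, encoding the RNA-stabilizing protein HuR, was 0.18 (SE 0.07). That of Tia1, encoding another RNA-binding protein, was 0.48 (SE 0.17), and 0.14 with the GC correction.

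**Figure D4:**
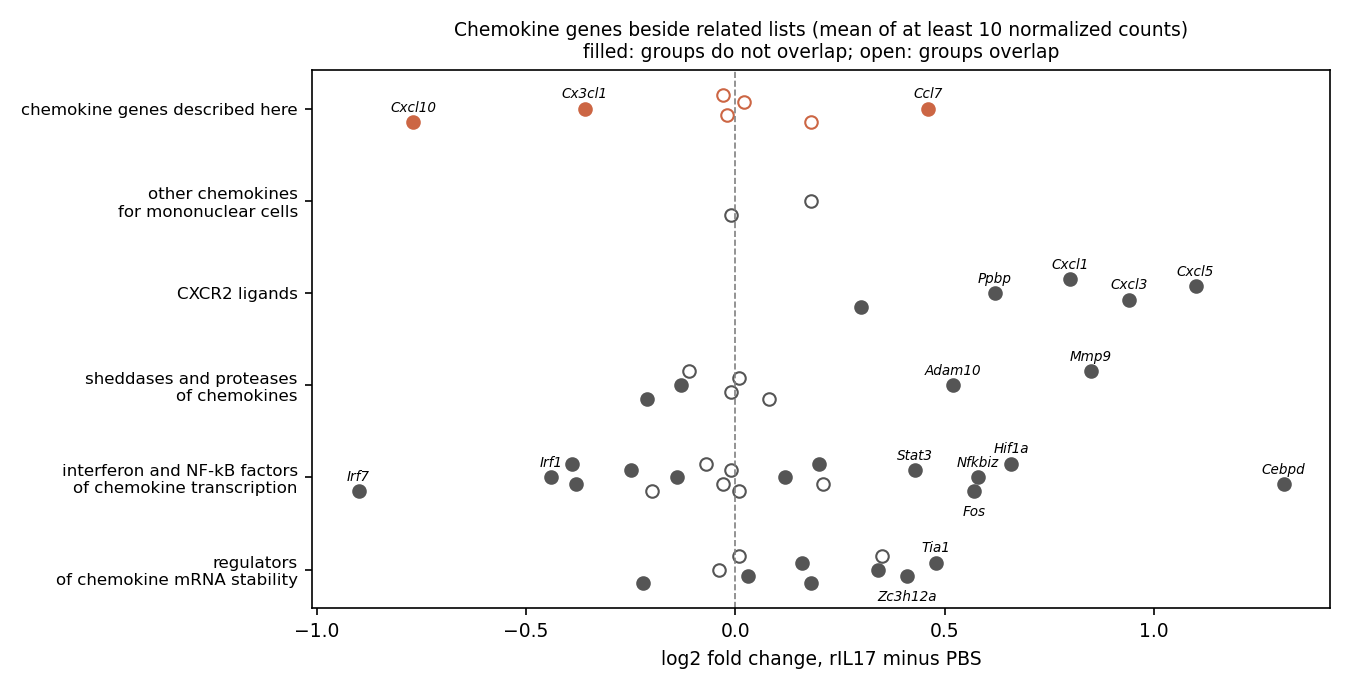
Log2 fold change (rIL17 minus PBS, x axis) of the 7 chemokine genes and of 5 related lists (rows), for genes averaging at least 10 normalized counts, filled where the groups do not overlap and open where they do. All 5 plotted CXCR2 ligands are filled and to the right of 0, and the chemokine genes in the top row run from Cxcl10 at -0.77 to Ccl7 at 0.46.

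Over the 4 libraries, and among 10267 genes averaging at least 100 normalized counts, the genes nearest to Cx3cl1 in the Euclidean distance of centred log2 values were Isg20 (0.025), Tma7-ps (0.029) and Mocs3 (0.031). Isg20 had 451 and 484 normalized counts in PBS, against 369 and 352 in rIL17. Nearest to Ccl7 were Btbd10 (0.007), Eif1a (0.046) and Mbnl2 (0.047), and Btbd10 had 357 and 328 in PBS, against 516 and 428 in rIL17. With 4 libraries such likeness is a description of order and size only.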

How the data were processed

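RNA from 4T1 cells was sequenced in 4 directional libraries, 2 per group. Reads were handled with featureCounts 1.5.0-p3, HISAT2 2.0.5 and CASAVA on mm10, per the submitters' processing notes. Not given in the sources used here are the annotation release, how featureCounts treated strand, and what computed the scaling. The deposited values are a signal, called normalized counts here: within a library all values were multiples of 1 step (0.9811, 0.9944, 1.0053 and 1.0029; 100.0% within 0.001), as gene counts divided by 1 factor per library would be. Reads are inferred here as the values divided by that step, and 3 such reads are taken as the floor. With 3 of the 4 steps so close to 1, the values alone do not settle that 1 step is 1 read, so read totals and Poisson intervals rest on that assumption and no count model was fitted.

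Genes with a mean of at least 1 in 1 group (20677) were tested with limma 3.58.1 (R 4.3.3), with a mean-variance trend, on log2(normalized count + 1), with Benjamini-Hochberg adjustment over all genes. This is the main fit. The scale understates changes of low genes. The stricter filter kept genes with 10 or more normalized counts in both libraries of a group and an average of 1 CPM or more. The GC correction subtracts, per library, a loess curve (span 0.5) of log2 deviations on the GC content of the longest GENCODE M21 transcript. Symbols matched 21819 of 21840 rows. Per-kb levels use the union of M21 exons. The members and lists were chosen with earlier results of these data known. Named are the 7 genes, up to 4 genes per other list with the smallest p, and the 3 genes nearest in pattern to the 2 chemokine genes with the smallest p (mean of at least 100). Ccl25, Irf7, Adam17, Ccr1, Ppbp, Epcam, Krt19, Cldn3, Cd14 and Cd68, list members outside that rule, were named after their values were seen, as were genes overlapping a member.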

Additional observations from a re-analysis of the deposited data

How the results depend on the processing

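Across 14 alternatives the log2 fold change of Ccl7 ran from 0.26 to 0.60, that of Cxcl10 from -1.01 to -0.53, that of Cx3cl1 from -0.41 to -0.29 and that of Ccl2 from 0.02 to 0.33, each keeping its sign, and adjusted p values in limma were 0.092 to 0.651, 0.132 to 0.678, 0.0341 to 0.553 and 0.435 to 0.903. The only call among the 7 genes was Cx3cl1 with robust shrinkage (-0.36, adjusted p = 0.0341). The other 3 genes changed sign. Ccl5 was 0.04 with the GC correction, with or without the replicate block, and ran from -0.08 to 0.03 with 1 library left out. Ccl20 was -0.64 with the GC correction, with or without the replicate block, and ran from -0.15 to 0.09 with 1 library left out. Cxcl16 was -0.03 with upper-quartile scaling, -0.01 with limma-voom, and ran from -0.07 to 0.11 with 1 library left out.

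With all 4 libraries, genes called over the whole table numbered 0 in the main fit, 1 with upper-quartile scaling and 1 with limma-voom. They numbered 103 with a mean of at least 10 over all libraries, 101 with the stricter filter and 268 with robust shrinkage. With the GC correction 119 were called, and 177 with the GC correction and replicate block. The cause of these differences was not tested. The chemokine genes higher without overlap numbered 1 to 4 with 1 library left out (4 without PBS replicate 2, 3 without rIL17 replicate 2), and those lower 2 to 4 (4 without PBS replicate 1), where only 3 values are compared. Among all genes tested, the shares without overlap were also larger with any library left out than with all 4 libraries, in both directions. Whether the chemokine genes exceeded those larger shares was not tested. A group left with 1 library is assumed to vary like the other.

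The replicate numbers are not said to pair the libraries, and the deviations of same-numbered libraries correlated at 0.157 over 12515 genes. With the replicate block alone 0 genes were called and Cx3cl1 had an adjusted p of 0.408. The planned edgeR and DESeq2 fits were not run, because the deposited values are normalized and the reads behind them only inferred. Of the 7 genes Cxcl10 had the fewest inferred reads (79 to 170 per library). Cxcl11 (3 to 19), Ccl17 (3 to 11) and Cxcr3 (32 to 53) had fewer still.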

Other observations

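The per-kb level of Ccl7 relative to Cx3cl1 within each library, a ratio that does not depend on the scaling of the library and that was chosen after the values were seen, was 0.664 and 0.577 in PBS and 1.16 and 1.02 in rIL17. The ratios of the 2 groups could not overlap, because Ccl7 was higher and Cx3cl1 lower in both rIL17 libraries. Their separation therefore adds no evidence. In rIL17 replicate 2 the levels were close, 880 per kb for Ccl7 and 864 for Cx3cl1, and the counting error of Ccl7 there (705 normalized counts, 95% Poisson interval 654 to 759) is larger than that gap. With the GC correction the log2 fold changes behind the ratio were smaller, 0.26 in place of 0.46 for Ccl7 and -0.29 in place of -0.36 for Cx3cl1. With 2 libraries per group an exact two-sided permutation test cannot go below p = 0.333. The ratio of Ccl7 to its chromosomal neighbour Ccl2 was 0.0905 and 0.0803 in PBS and 0.103 and 0.105 in rIL17, also without overlap, although the levels of Ccl2 itself overlapped. The ratio of Cxcl10 to Cx3cl1 was 0.0485 and 0.064 in PBS and 0.0424 and 0.0407 in rIL17. The ratios of Ccl7 to Ccl2 and of Cxcl10 to Cx3cl1 were not planned either. How often the ratios of other gene pairs separate the groups was not counted.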
